A study of Mus musculus with 12 samples.

Results

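The transcripts of Sprr1a (ENSMUST00000054599), Gap43 (ENSMUST00000102817) and Stmn2 (ENSMUST00000029002), 3 genes known for their part in axon growth, were followed in mouse dorsal root ganglia with and without sciatic nerve injury. They were chosen by transcript ID, and all 3 were present among the 101744 transcripts of the deposited table. Every mouse carried HA-tagged Rpl22, a protein of the large ribosomal subunit, on both alleles together with Advillin-Cre (RPL22HA+/+;Advillin-Cre+), a RiboTag design in which Cre, driven by a gene active in peripheral sensory neurons, switches on the tag. The 4 groups of 3 samples were IP uninjured, IP injured, input uninjured and input injured, where IP is the RNA pulled down with an antibody to HA and input was taken as the ganglion RNA before the pulldown. The labels describe the pulldown in the extraction text of the input samples as well, so how the input RNA was made is uncertain. The sources used here do not give the time after injury, the age of the mice, how many there were or whether they were pooled. Levels refer to 1 transcript per gene, and other transcripts of these genes were not analysed here.

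When the peripheral axon of a sensory neuron is cut, the cell body in the ganglion switches to a growth programme, and these genes are among its classical effectors. Gap43 encodes a phosphoprotein on the inner face of the growth cone membrane, where it acts on the actin cytoskeleton. Stmn2, also called SCG10, encodes a neuronal stathmin that binds tubulin and tunes microtubule dynamics in growing axons. Sprr1a encodes a small proline-rich protein best known from the cornified envelope of skin, and it is nearly silent in intact neurons but switched on after axotomy.

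The input samples held 1584104 to 1685756 estimated counts and the IP samples 190594 to 212449. Within a group the totals differed by 0.0374% to 0.449% of their mean. The spread between the 3 samples of a group was near or below counting noise for most values of the 3 transcripts. In uninjured input, Stmn2 had a standard deviation of 10.5 counts between samples where counting noise alone gives 46.1. The spread was above counting noise for Sprr1a in injured input, with a standard deviation of 47.4 counts against 24.8 (chi-square p = 0.0270), and for Gap43 in uninjured IP. For Stmn2 it was 17.9 against 11.6 in uninjured IP and 18.9 against 13.3 in injured IP (chi-square p = 0.0932 and 0.133). In injured input Stmn2 had 61.7 against 54.6 (chi-square p = 0.292). The totals lay this close, and most values of the 3 transcripts showed no spread beyond counting noise. The 3 samples of a group were therefore summed, counted as 1 sample and are called portions. That treatment is an assumption. Over the transcripts it fitted, edgeR with the samples as replicates put the common coefficient of variation beyond counting noise at 35.6%. Input samples with the same number also deviated alike, as described under the processing. No difference between conditions below has a replicate check, and each interval is a 95% counting interval that covers counting error only. Levels are given as CPM (counts per 1000000 counts of the library), with library sizes scaled by the trimmed mean of M-values (TMM). A transcript was called higher or lower where it reached 10 CPM in the higher group, differed at least 2-fold with an interval that excluded 1, and had portions that did not overlap. The deposited table gives no gene names, so markers of sensory neurons, glia or other cells were not examined, and the purity of the IP was not tested. In such bulk RNA, fewer cells of a type and less RNA per cell cannot be told apart.

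Sprr1a had the largest injury change of the 3 transcripts in both fractions. In uninjured input its portions held 2, 2 and 1 counts, and in injured input 581, 669 and 593. It was almost undetected before injury and abundant in every portion after it. The level rose from 1.65 to 678 CPM, a 412-fold increase (176 to 1270). In uninjured IP the portions held 1, 2 and 0 counts, and in injured IP 19, 19 and 18. The groups did not overlap here either. The level in IP rose from 2.88 to 55.1 CPM, which is 19.2-fold (6.22 to 95.7) on a base of 3 counts. That base is a single digit, so 1 portion moves the fold. Without portion 2 of uninjured IP it was 42.9-fold, and without portion 3 it was 14.2-fold. The uninjured values, 5 counts of 5055830 in input and 3 of 635927 in IP, made up 9.89e-05% (exact Clopper-Pearson interval 3.21e-05% to 0.000231%) and 0.000472% (9.73e-05% to 0.00138%) of the counts. Injured shares were 0.0388% (0.0370% to 0.0406%) in input and 0.00979% (0.00740% to 0.0127%) in IP. The 3 injured input values of Sprr1a were not whole numbers, so the estimate did not rest on whole reads alone. In the RefSeq table Sprr1a lies between Sprr3 and Sprr4, members of the same gene family, and whether reads were shared with such relatives was not tested.

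The promoter of Sprr1a, the transcript with the strongest injury change, is shown. The promoter sequences used held no entry for Gap43 or Stmn2, so theirs could not be compared. The window holds the 250 bases before the start of the gene at chr3:92485882-92486131, minus strand, from RefSeq's sequences of build GRCm38.p6, which is not the build named by the submitters. Capitals mark AP-1 motifs (TGANTCA) and the TATA box motif (TATAAA).

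Sprr1a promoter: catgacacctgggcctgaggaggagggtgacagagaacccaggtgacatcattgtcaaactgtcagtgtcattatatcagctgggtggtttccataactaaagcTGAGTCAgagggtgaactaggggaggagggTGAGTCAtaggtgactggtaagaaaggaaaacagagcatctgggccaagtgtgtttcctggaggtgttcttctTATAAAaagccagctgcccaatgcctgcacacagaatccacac

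The 2 AP-1 motifs both read TGAGTCA and lie 146 to 140 and 116 to 110 bases before the start. The AP-1 motif is the binding motif of Jun and Fos family dimers. At least 1 such motif was present in 6.75% of the 32851 promoter windows of this length in the table, and at least 2 in 0.338%. The TATAAA match lies 43 to 38 bases before the start, and 12.4% of the windows hold this motif. There were 6 E-box motifs (CANNTG), and 0.274% of the windows hold as many. The CRE motif (TGACGTCA) and the GC box (CCGCCC) did not occur in these letters, and 1.55% and 32.7% of the windows hold them. Both strands were searched, and no match overlapped that of another motif. These are letter matches and no measurement of binding.

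Gap43 was well detected without injury and rose in input. Before injury its input portions had 234, 216 and 215 counts, and after injury 488, 481 and 501. The injured portions lay far above the uninjured ones. The level rose from 219 to 541 CPM, which is 2.47-fold (2.25 to 2.71). In uninjured IP the portions held 50, 54 and 30 counts, and in injured IP 61, 67.1 and 73. These did not overlap, but portion 3 of uninjured IP was low, and the uninjured portions differed more than counting noise gives (chi-square p = 0.0243). The IP level was 129 CPM in uninjured and 198 CPM in injured ganglia, a ratio of 1.54 (1.23 to 1.93), which is under the 2-fold needed for a call. Gap43 made up 0.0132% (0.0122% to 0.0142%) of uninjured and 0.0309% (0.0294% to 0.0325%) of injured input counts. Its IP shares were 0.0211% (0.0177% to 0.0250%) and 0.0351% (0.0305% to 0.0404%).

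Stmn2 was abundant in both conditions and had the smallest injury change of the 3. Before injury its input portions had 2138, 2132 and 2117 counts, and after injury 2910, 3030 and 2995. The portions within each input group lay within a few percent of each other, and the groups were far apart by comparison. The level was 2104 CPM in uninjured and 3286 CPM in injured input, a ratio of 1.56 (1.51 to 1.61). In uninjured IP the portions held 125, 121 and 154 counts, and in injured IP 183, 155 and 191. The lowest injured value, 458 CPM, was just above the highest uninjured one, 443 CPM. The IP level was 384 CPM in uninjured and 521 CPM in injured ganglia, a ratio of 1.36 (1.19 to 1.55). Neither ratio reached 2-fold. Stmn2 accounted for 0.126% (0.123% to 0.129%) of uninjured and 0.188% (0.184% to 0.192%) of injured input counts, and for 0.0629% (0.0569% to 0.0694%) and 0.0925% (0.0848% to 0.101%) of IP counts.

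**Figure D1:**
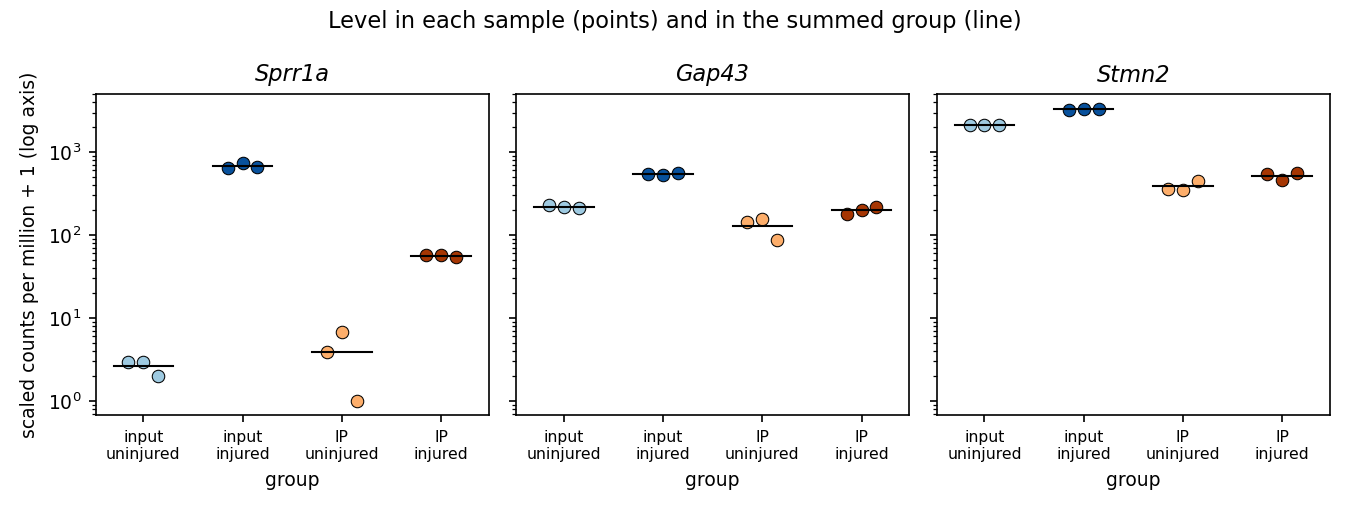
Level of each transcript in the 12 samples, as scaled CPM plus 1 on a log axis. Points are the 3 portions of a group and the line is the summed group. Sprr1a goes from 1.65 to 678 CPM with injury in input and from 2.88 to 55.1 CPM in IP, while Gap43 and Stmn2 start from a high level.

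Against all compared transcripts, 2 of the 3 were called higher after injury in input and 1 of the 3 in IP. In input, 9.51% of 8953 compared transcripts were called higher, and in IP 11.3% of 8041. The median log2 ratio of all compared transcripts was -0.10 in input and -0.09 in IP, so the 3 log2 ratios of 8.69, 1.30 and 0.64 in input (Sprr1a, Gap43, Stmn2) and 4.26, 0.62 and 0.44 in IP lay above it. In input, no transcript with counts in both groups (8718 transcripts) had a higher ratio than Sprr1a. Another 103 had no count in uninjured input and no defined ratio. In IP, 12 of 7588 transcripts with counts in both groups had a higher ratio than Sprr1a. The ratio of Gap43 exceeded that of 91.0% of the compared transcripts in input and 72.1% in IP. For Stmn2 these shares were 80.3% and 67.2%.

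**Figure D2:**
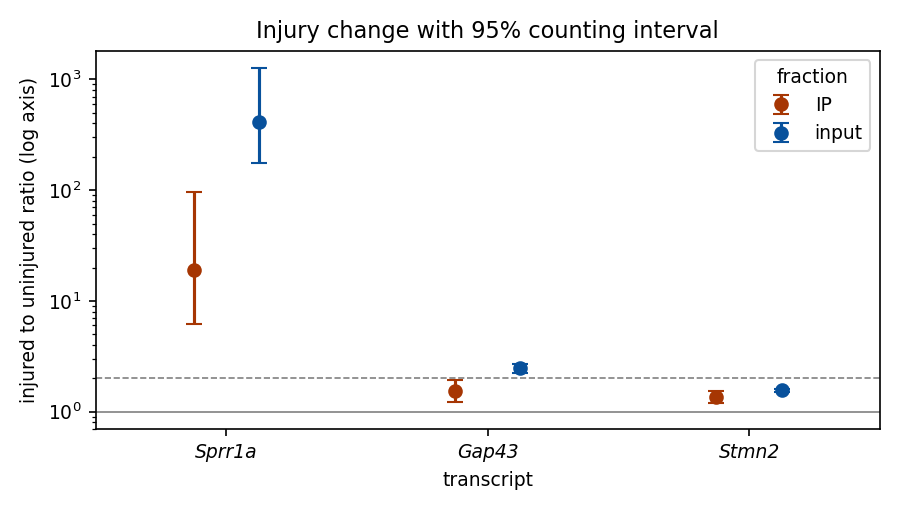
Injured to uninjured ratio of each transcript in IP and in input, on a log axis, with 95% counting intervals. The solid line is no change and the dashed line 2-fold. Sprr1a is at 412 in input and 19.2 in IP, and the input ratio is the larger for Sprr1a and Gap43. For Stmn2 the intervals overlap.

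**Figure D3:**
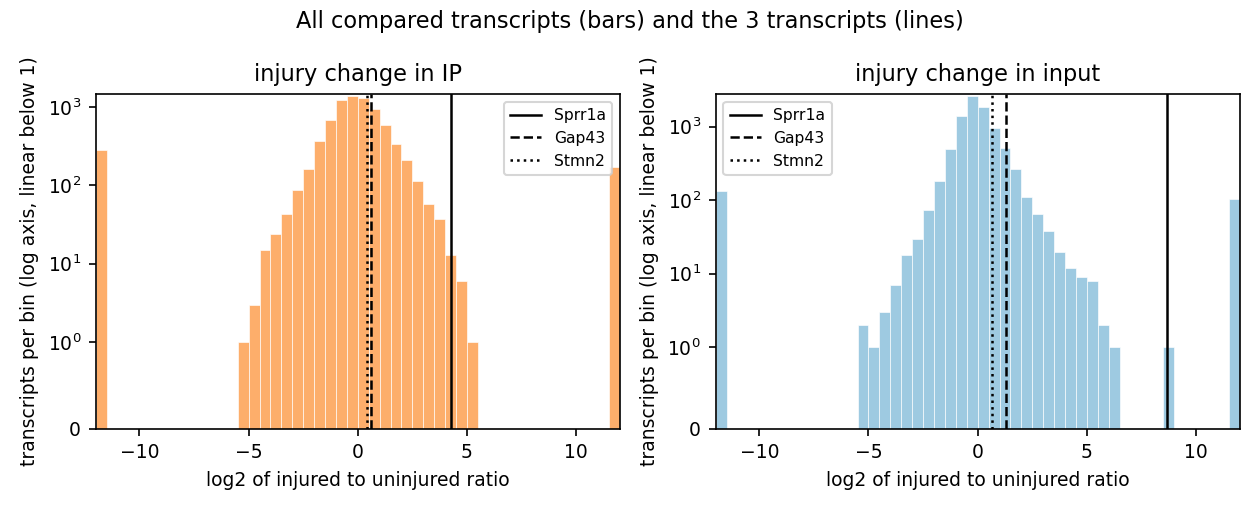
Number of compared transcripts by log2 injured to uninjured ratio, in bins of 0.5 log2 units, with the 3 transcripts as lines. The outermost bars hold transcripts with no count in 1 of the groups (173 on the right and 280 on the left in IP, 103 and 132 in input). Sprr1a stands alone at 8.69 in input. Gap43 and Stmn2 lie right of the median in both panels, and in IP 27.0% and 32.7% of the compared transcripts had a higher ratio.

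The labels list the 3 samples of a group as separate samples. An edgeR quasi-likelihood test that took them as replicates, with Benjamini-Hochberg adjustment over 9959 transcripts, gave log2 changes with injury in input of 8.51 for Sprr1a (adjusted p = 1.09e-07), 1.29 for Gap43 (adjusted p = 0.000650) and 0.63 for Stmn2 (adjusted p = 0.00191). In IP that edgeR test gave 4.19 (adjusted p = 5.50e-05), 0.65 (adjusted p = 0.0415) and 0.47 (adjusted p = 0.0136). By this test 9.04% of the transcripts had an adjusted p under 0.05 for injury in input and 12.6% in IP. Without its filter on low counts, the edgeR adjusted p in IP was 0.138 for Gap43 and 0.0531 for Stmn2. Input samples with the same number were taken as pairs, as described below. With the sample number in the fit (replicate block), the edgeR adjusted p in input was 1.27e-05 for Sprr1a, 0.00501 for Gap43 and 0.00579 for Stmn2. In that fit 614 of 9959 transcripts had an adjusted p under 0.05 for injury in input. All injured portions were above all uninjured ones in these 6 comparisons. Such p-values measure the spread between portions, which may be technical.

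By counting intervals of the summed portions, the injury ratio was smaller in IP than in input for Sprr1a and Gap43. For Stmn2 the difference depended on the scaling and on single portions. The log2 difference, IP minus input, was -4.43 for Sprr1a (-6.53 to -2.33). The exact conditional interval, -6.82 to -1.70, which suits the small uninjured counts, also excluded 0. Sprr1a had under 10 counts in both uninjured groups and was not eligible for a call. For Gap43 the difference was -0.68 (-1.02 to -0.34), and for Stmn2 -0.20 (-0.40 to -0.01). The Stmn2 difference was -0.02 (-0.21 to 0.18) with library totals alone, -0.17 (-0.37 to 0.02) with no filter before TMM and -0.15 (-0.34 to 0.04) with a filter on the 12 samples, intervals that all include 0. The interval also included 0 when any 1 portion of uninjured IP or of injured input, or portion 2 of injured IP, was left out, and without portion 3 of uninjured IP the difference was -0.02 (-0.25 to 0.20). Neither Gap43 nor Stmn2 reached 1 in size, so 0 of the 2 eligible transcripts were called, against 10.4% of 4928 transcripts called lower in this comparison. With the samples as replicates, the edgeR interaction test gave an adjusted p of 0.0268 for Sprr1a, 0.195 for Gap43 and 0.636 for Stmn2, and 4.53% of the transcripts were under 0.05. Without the filter on low counts the edgeR adjusted p was 0.0823 for Sprr1a and 0.523 for Gap43.

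In these RiboTag data Stmn2, which is known as a neuronal transcript, was lower in IP than in input in both conditions. Its portions stood at 360, 349 and 443 CPM in uninjured IP against 2112, 2107 and 2093 CPM in uninjured input. After injury they stood at 540, 458 and 564 CPM against 3212, 3342 and 3305 CPM. No IP portion came near the input range. The IP to input ratio was 0.182 (0.164 to 0.202) in uninjured and 0.158 (0.145 to 0.173) in injured ganglia. Gap43 had portions of 144, 156 and 86.3 CPM in uninjured IP and 231, 214 and 213 CPM in uninjured input. Its ratio was 0.587 (0.484 to 0.707), short of 2-fold, though without portion 2 of uninjured IP it was 0.492 and met the rule for a call. In injured ganglia the Gap43 portions were 180, 198 and 216 CPM in IP and 539, 530 and 553 CPM in input. The ratio was 0.366 (0.314 to 0.424). Sprr1a had portions of 56.1, 56.1 and 53.1 CPM in injured IP against 642, 738 and 655 CPM in injured input, a ratio of 0.0812 (0.0611 to 0.106). In uninjured ganglia, 3 counts in IP and 5 in input gave a Sprr1a ratio of 1.75 (0.271 to 8.98), so no difference was detectable at this depth.

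By the call rule 1 of the 3 transcripts, Stmn2, was lower in IP in uninjured ganglia, where 38.3% of 10135 compared transcripts were called lower. All 3 were called lower in injured ganglia, where the share was 38.1% of 9608. The median log2 ratio of all compared transcripts was -0.43 and -0.54. These ratios depend on the scaling. With library totals alone every IP to input ratio is 2.73 times higher in uninjured and 3.11 times higher in injured ganglia, and the median log2 ratio moves to 1.67 and 1.79. Stmn2 was then still lower in IP, at 0.498 and 0.492, and Sprr1a at 0.252 in injured ganglia. Gap43 turned round in uninjured ganglia, at 1.60 (1.32 to 1.93). In injured ganglia it was 1.14 (0.976 to 1.32), an interval that includes no difference. In CPM of the library total alone, its uninjured portions were 235, 255 and 141 in IP and 139, 128 and 128 in input. The direction for Gap43 is therefore not settled by these data. Relative to all compared transcripts, 30.9% had a lower ratio than Stmn2 in uninjured ganglia and 27.5% in injured ganglia. For Gap43 these shares were 45.9% and 38.4%. For Sprr1a in injured ganglia the share was 21.5%. These shares count transcripts with no count in IP as lower, 1313 of 10135 in uninjured and 1054 of 9608 in injured ganglia. Of 8307 transcripts with counts in both injured groups, 7298 had a higher ratio than Sprr1a, 5671 than Gap43 and 6716 than Stmn2. Of 8471 with counts in both uninjured groups, 5126 had a higher ratio than Gap43 and 6653 than Stmn2.

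**Figure D4:**
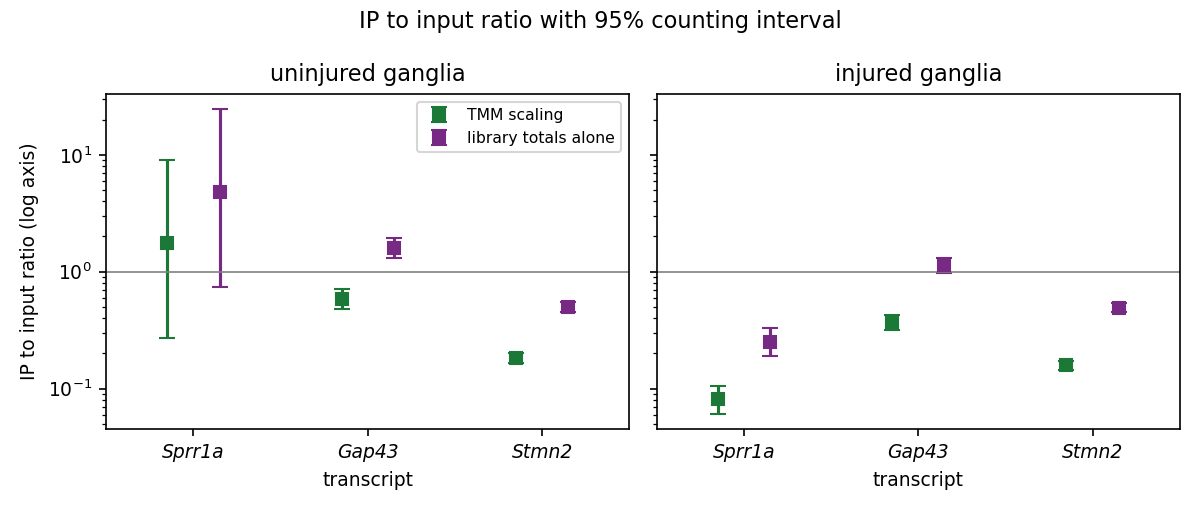
IP to input ratio of each transcript on a log axis, with 95% counting intervals, under TMM scaling and under library totals alone. The grey line is equal level. Stmn2 lies below it under both scalings, at 0.182 and 0.498 in uninjured ganglia, and Gap43 lies on different sides of it, at 0.587 and 1.60.

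The ratio of one transcript to another within a sample is free of this scaling. Whether transcript length affected the counts in the same way in IP and input was not tested. The count ratio of Gap43 to Stmn2 was 0.104 in uninjured input, with portions from 0.101 to 0.109, and 0.335 in uninjured IP, with portions from 0.195 to 0.446. The IP ratio was 3.22 times the input ratio (2.58 to 3.99). In injured ganglia the ratios were 0.165 in input and 0.380 in IP, which is 2.31 times (1.93 to 2.75). The portions of IP and input did not overlap in either condition, so Gap43 was better represented in IP, relative to Stmn2, than in input. With injury the ratio of Gap43 to Stmn2 rose 1.58-fold in input (1.43 to 1.74). In IP it was 1.13-fold (0.873 to 1.48), an interval that includes no change. For Sprr1a to Gap43 in injured ganglia, the ratio was 1.25 in input and 0.279 in IP, which is 4.50 times lower in IP (3.30 to 6.22). The ratio of Sprr1a to Stmn2 was 0.206 in injured input and 0.106 in injured IP, which is 1.95 times lower in IP (1.47 to 2.63). In uninjured ganglia, on 3 and 5 counts of Sprr1a, both ratios went the other way. Sprr1a to Gap43 was 2.98 times higher in IP (0.456 to 15.5), an interval that includes no difference, and Sprr1a to Stmn2 was 9.58 times higher (1.48 to 49.5). The portions overlapped, with Sprr1a to Stmn2 between 0 and 0.0165 in uninjured IP and between 0.000472 and 0.000938 in uninjured input.

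**Figure D5:**
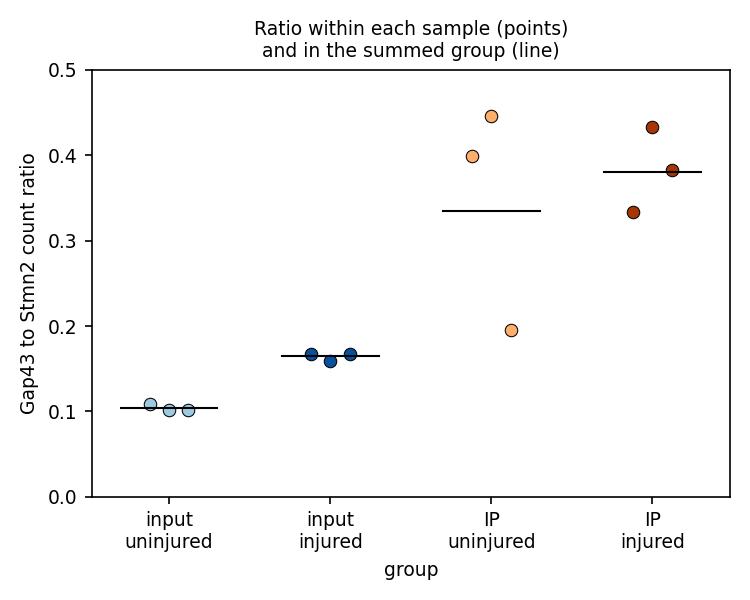
Count ratio of Gap43 to Stmn2 within each sample, with the summed group as a line. The axis starts at 0. Input portions lie between 0.101 and 0.168 and IP portions between 0.195 and 0.446.

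Likeness of pattern was measured as the distance between the 4 group levels, log2(CPM + 1), each centred on its own mean, over 11380 transcripts. For Gap43 the nearest was ENSMUST00000198140.5, at a distance of 0.17, with 21 counts in uninjured and 47 in injured input and 4 and 7 in uninjured and injured IP. For Sprr1a the nearest, ENSMUST00000103016.8, was 2.05 away. Its 104 counts in injured input and 7 in injured IP each came from 1 portion, and it had 0 counts in both uninjured groups. The distance also reflects the size of the changes. A transcript with a similar pattern but smaller changes than Sprr1a would therefore not count as close.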

How the data were processed

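RNA of IP and input fractions from injured and uninjured ganglia was sequenced after a nanopore PCR-cDNA barcoding preparation, per the labels' protocols. The values the authors deposited are estimated counts of each transcript, of which 3.00% to 11.4% per sample were not whole. Per the submitters' processing notes, minimap2 and Salmon were used with the builds GRCm39 and mm39, with versions and roles not given in the sources used here. Long cDNA reads and PCR without molecular identifiers can make the counts depend on read length and amplification. Columns were matched to samples by library name. Gene names of the 3 transcripts come from the rule that chose them, and no transcript ID matched the gene tables, so the lists of other axon growth genes and of cell type markers were not used.

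The members, the lists and the treatment of samples were chosen with earlier results of these data known. Because totals within a group were nearly equal, the 3 samples' estimated counts were summed and rounded. TMM factors came from transcripts that passed edgeR's filterByExpr on the 4 sums. Ratios have exact conditional intervals and shares exact Clopper-Pearson intervals, at 95%. A difference of injury changes was called from 10 counts in each group, a size of 1 on the log2 scale and an interval, by normal approximation, that excluded 0. Named transcripts were the 3 members and the nearest pattern of the 2 with the largest injury change in input. A floor of 3 counts was worth 0.988 CPM in uninjured input, 1.10 in injured input, 2.88 in uninjured IP and 2.95 in injured IP. Alternatives were other scalings, portions left out, and edgeR 4.0.16 and DESeq2 1.42.0 (R 4.3.3) with the samples as replicates. The methods were tested on simulated data, with injury changes larger than those of Gap43 and Stmn2 in well-counted transcripts. For the sums the simulated counts had counting noise only. Low counts such as those of Sprr1a before injury were not among the changed transcripts. The simulation therefore does not cover the results of the 3 transcripts.

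A check of pairing correlated each sample's deviations from its group mean over 498 transcripts. Between injured and uninjured input, samples with the same number gave r of 0.201, 0.203 and 0.168, and those with different numbers -0.189 to -0.0133. Deviations from a group mean cancel out within the group. The negative values for different numbers therefore follow in part from the positive ones and are no separate evidence. Samples with different numbers reached r of 0.466 between injured and uninjured IP, and 0.359 between IP and input of injured ganglia. Whether the same-number values in input exceed chance was not tested. The numbers were nevertheless taken as pairs for injury in input. The pairing comes from the data, not from the labels, and the sums do not use it.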

Additional observations from a re-analysis of the deposited data

Results flagged for a closer look

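The injury change of Sprr1a had a log2 difference, IP minus input, of -4.43. It is listed here because an edgeR interaction test that took the portions as replicates gave an adjusted p of 0.0268 (0.00143 to 0.0823 over the other fits of this kind, the highest in edgeR without a filter). That p rests on the spread between portions, so the difference between the fractions has no test across separate samples, and Sprr1a was not eligible for a call. The value rests on 3 counts in uninjured IP and 5 in uninjured input. The part of the low uninjured counts in this difference was not tested.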

How the results depend on the processing

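The IP to input ratios moved most. With library totals alone the log2 ratio of Gap43 was 0.68 in uninjured and 0.18 in injured ganglia, where TMM scaling gave -0.77 and -1.45. Its direction reversed in uninjured ganglia. In injured ganglia the interval with library totals alone, -0.04 to 0.40, included no difference. That of Stmn2 was -1.01 and -1.02 (TMM -2.45 and -2.66), that of Sprr1a in injured ganglia -1.99 (TMM -3.62), and the log2 injury change of Stmn2 in input 0.57 (TMM 0.64). By construction these are shifts common to all transcripts, of 1.45 and 1.64 for IP to input and of 0.12 and -0.07 for injury in IP and input. With TMM factors from the compared groups alone, Stmn2 had 0.74 for injury in input and -2.48 for IP to input in injured ganglia. With no filter before TMM, Stmn2 had -2.63 and -2.81 for IP to input in uninjured and injured ganglia, and with the edgeR test without a filter -2.68 and -2.87. The cause was not tested.

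Leaving out 1 portion gave log2 injury changes of 0.34 to 0.71 in IP and 0.55 to 0.68 in input for Stmn2, and an IP to input ratio of -2.66 to -2.42 in uninjured ganglia. For Sprr1a the injury change in IP ranged from 3.82 to 5.42, its difference from input from -4.95 to -3.35, and its IP to input ratio in uninjured ganglia from -0.29 to 1.30. The ratio of Gap43 to Stmn2 between uninjured IP and input was 3.22, and 4.06 without portion 3 of uninjured IP. Its injury change in IP went from -0.15 to 0.41 on the log2 scale.

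With the replicate block the edgeR adjusted p for Gap43 in IP was 0.0818, and the block changed no other call of the 3 transcripts in edgeR at 0.05. For the Gap43 difference of injury changes the adjusted p was 0.0391 in DESeq2, against 0.301 in edgeR with the replicate block. For injury in IP, samples sharing a number correlated at -0.412 to -0.0975 and were not taken as pairs, nor in IP against input. In input every sample correlated best with its own number. Counts over all transcripts for injury in IP were 1784 by the reported rule, 1250 in edgeR, 912 with the replicate block, 782 without a filter and 1271 in DESeq2. For injury in input they were 1469, 900, 614, 637 and 1752, and for the difference of injury changes 1011, 451, 310, 303 and 693. A filter on the 12 samples and the exact estimate, added after seeing the data, kept every value of the 3 transcripts within its reported interval. The IP depth limits Sprr1a most, where 3 counts in the uninjured group are worth 2.88 CPM.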
